A study of Homo sapiens with 7 samples.

Results

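The IGF2BP proteins and the machinery that writes and reads N6-methyladenosine (m6A) were followed at the RNA level in Huh-7 cells depleted of IGF2BP1. The 10 genes are IGF2BP1, IGF2BP2 and IGF2BP3, the YTH readers YTHDF1, YTHDF2, YTHDF3 and YTHDC1, and the writer subunits METTL3, METTL14 and WTAP. They were chosen by name, as the rows of the deposited table whose symbol equals a member, which gave 10 of 58174 rows. Huh-7 is a tumor cell line derived from human hepatocellular carcinoma. The cells were transfected with a control siRNA (siC, 3 libraries) or with a siRNA pool directed against IGF2BP1 (siIGF2BP1, 4 libraries), and all were harvested 72 h later, so both groups share the transfection. The cells carried no other labelled alteration, and the labels do not say whether replicates came from separate cultures. The p-values below therefore measure the spread between these libraries, which may be technical.

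m6A is set on nascent mRNA by a complex in which METTL3 is the catalytic subunit, METTL14 holds the RNA and WTAP anchors the pair in nuclear speckles. The mark is read in the nucleus by YTHDC1, which acts in splicing and export, and in the cytoplasm by the YTHDF proteins, of which YTHDF2 is known for promoting decay. The IGF2BPs are RNA-binding proteins of fetal tissue and tumors that bind mRNAs, among them m6A-marked ones, and stabilize them. IGF2BP1 and IGF2BP3 are low in most adult tissues and are known targets of the let-7 microRNA family.

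The 3 IGF2BP genes share a sequence feature that the choice of members did not use. Their 3′UTRs (canonical transcripts, GENCODE v44 on GRCh38) each hold a match to the let-7 seed, the bases 2 to 8 that pair with a target. The mature let-7a sequence, credited to RefSeq (GRCh38), is shown first with its seed in capitals. The target sites follow as genomic sense-strand DNA with the CTACCTC match in capitals, searched on the transcript strand only. They show the number and the context of the matches in each family member.
hsa-let-7a-5p: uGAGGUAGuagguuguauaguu
IGF2BP1, chr17:49051061-49051090, plus strand: tgtgtgcgaagtaaaCTACCTCaaggtatg
IGF2BP1, chr17:49053698-49053727, plus strand: cagcagtgctagtaaCTACCTCacagagcc
IGF2BP1, chr17:49054352-49054381, plus strand: gtataaatggattaaCTACCTCaatcctta
IGF2BP1, chr17:49054997-49055026, plus strand: tcacttttgttttatCTACCTCttagcaaa
IGF2BP2, chr3:185644213-185644242, minus strand: aacacacagaagaagCTACCTCaggtgttt
IGF2BP3, chr7:23311788-23311817, minus strand: tgcatttttactcaaCTACCTCaggtattc

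IGF2BP1 held 4 matches in 6701 bases of 3′UTR, IGF2BP2 held 1 in 2401 bases and IGF2BP3 held 1 in 2153 bases. Among 3865 protein-coding genes tested here with a 3′UTR of at least 2000 bases, 21.1% held at least 1 match and 0.673% held 3 or more. That set is not matched in length to the longer 3′UTR of IGF2BP1, and a longer 3′UTR has more room for matches. Among the other 7 members METTL14 had 1 match and the remaining genes had none. A match of letters is a description of the window and not evidence of binding. The motif GGACT, a frequent sequence context of m6A searched on the transcript strand, occurred 9 times in the IGF2BP1 transcript (1.02 per 1000 bases) and 4 times each in METTL3 (2.02 per 1000 bases) and WTAP (1.90 per 1000 bases). It occurred once in YTHDF1 (0.313 per 1000 bases), against a median of 0.906 per 1000 bases over the canonical transcripts of 10624 tested protein-coding genes.

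Total RNA depleted of ribosomal RNA was sequenced, and the deposited values are FPKM, fragment counts divided by gene length and by effective library size. Reads on genes ranged from 12826550 to 33212205 per library. Each member had at least 464 reads in every library, so all 10 passed the filter on low values (a mean of at least 1 FPKM), as did 14839 genes in all. All 8 hepatocyte lineage markers examined were expressed, with values between 14.1 FPKM (TTR) and 3450 FPKM (AFP). PTPRC, COL1A1 and KRT5, which mark leukocytes, fibroblasts and squamous epithelium, stayed at or below 0.0740 FPKM in each library, whereas the endothelial marker PECAM1 was at 2.58 to 3.29 FPKM. One library stood apart. siC replicate 3 was separated from the other 6 libraries by the first principal component, which held 34.5% of the variance. Over tested genes the log2 difference of siC replicate 3 from the mean of siC replicates 1 and 2 had a median size of 0.33, and across protein-coding genes it followed the GC content of the transcript (Spearman's rho -0.560, across genes, which are not independent). The change of each member is therefore given with and without that library.

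IGF2BP1 was the 1 member of the 10 that passed the threshold (limma, Benjamini-Hochberg adjusted p of at most 0.01 over 14839 genes), where 3.93% of all tested genes passed, 2.28% as lower and 1.65% as higher. Its transcript fell to 19.2% of the control. IGF2BP2 and IGF2BP3 stayed within a 1.25-fold rise at the upper end of their intervals, and none of the YTH readers passed. WTAP was lower in siIGF2BP1 at 74.4% of siC but missed the threshold with all libraries (limma adjusted p = 0.0338) and passed it without siC replicate 3. Without that library 3 members passed, all lower (IGF2BP1, METTL3 and WTAP), where 10.3% of all tested genes passed, 6.67% as lower and 3.59% as higher. Members whose groups did not overlap were IGF2BP1, YTHDF2 and WTAP, 3 of 10, all of them lower, against 27% of all tested genes in either direction and 15.1% in the lower direction. The median log2 change was -0.035 over the 10 members and -0.017 over all tested genes, and -0.0042 and -0.031 without siC replicate 3. In bulk RNA, less RNA per cell and fewer cells that carry it cannot be told apart.

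**Figure D1:**
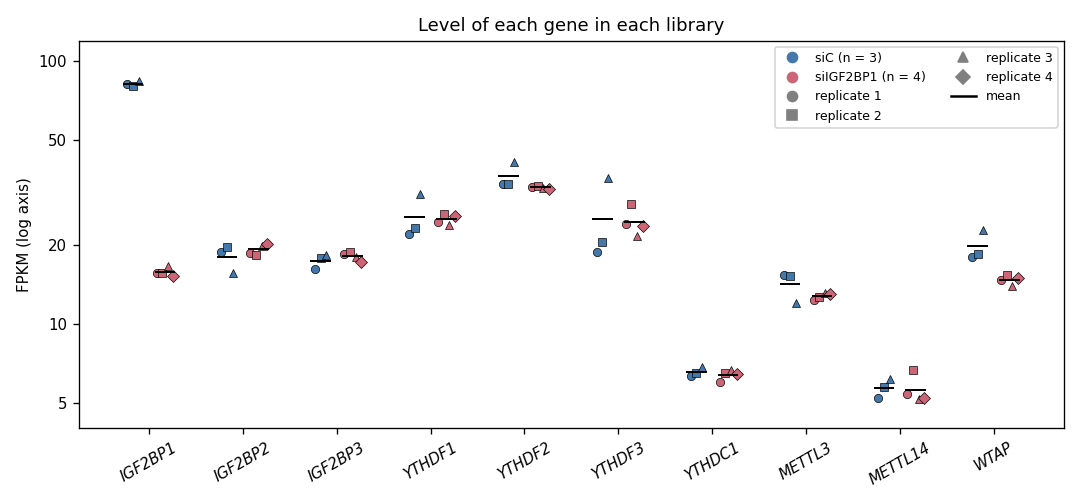
FPKM on a log axis for each of the 10 genes in each library, with siC in blue (n = 3), siIGF2BP1 in red (n = 4), 1 symbol per replicate number and a black line at the group mean. IGF2BP1 lay between 80.4 and 84.4 FPKM in siC and between 15.3 and 16.6 FPKM in siIGF2BP1, and siC replicate 3 held the highest siC value of each gene except IGF2BP2 and METTL3.

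IGF2BP1 is the gene the siRNA pool was directed against, so its level checks the labels. The gene lies on chromosome 17 of GRCh38 (48997385 to 49056145 on the plus strand), has the identifier ENSG00000159217 and spans 15 exons. Its exons share 37 bases with the noncoding RNA RP11.501C14.5 and 76 bases with RP11.501C14.6, both on the other strand. RP11.501C14.5 had means of 2.22 FPKM in siC (SD 0.232, n = 3) and 1.91 FPKM in siIGF2BP1 (SD 0.772, n = 4). RP11.501C14.6 was at most 0.494 FPKM in each library. IGF2BP1 measured 81.9, 80.4 and 84.4 FPKM in siC replicates 1 to 3. After depletion it measured 15.6, 15.7, 16.6 and 15.3 FPKM in replicates 1 to 4. Every siIGF2BP1 library lay below every siC library, and the values within a group were close, with a log2 SD of 0.036 in siC and 0.052 in siIGF2BP1 against medians of 0.21 and 0.11 over all tested genes. The group means were 82.2 ± 2.03 FPKM (SD, n = 3) and 15.8 ± 0.583 FPKM (SD, n = 4). The log2 change was -2.37, with a 95% interval from -2.50 to -2.24 (limma adjusted p = 1.16e-05), and -2.35 without siC replicate 3. As a fold of siC, that interval ran from 0.176 to 0.211. Its mean over all 7 libraries, the 4 depleted ones included, lay at the 93.5th percentile of tested genes.

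IGF2BP2 (ENSG00000073792, chromosome 3, 185643130 to 185825042, minus strand, 16 exons), the homologue that is also expressed in adult tissue, had siC values of 18.8, 19.6 and 15.6 FPKM. In siIGF2BP1 its values were 18.6, 18.2, 19.9 and 20.2 FPKM. The groups overlapped, and the lowest of the 7 values was that of siC replicate 3. It differed by 0.10 on the log2 scale, with a 95% interval from 0.923-fold to 1.25-fold (limma adjusted p = 0.559). Without siC replicate 3 the log2 change was 0.0030, with an interval from -0.14 to 0.14.

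IGF2BP3 (ENSG00000136231, chromosome 7, 23310209 to 23470491, minus strand, 15 exons), like IGF2BP1 an oncofetal protein, was at 16.2, 17.8 and 18.3 FPKM in siC. It was at 18.4, 18.8, 18.0 and 17.3 FPKM in siIGF2BP1, and the groups overlapped. Its log2 change of 0.058 had a 95% interval from 0.935-fold to 1.16-fold (limma adjusted p = 0.649), and the change was 0.092 without siC replicate 3. Its exons share 1521 bases with those of MALSU1 on the other strand. MALSU1, a mitochondrial ribosome assembly factor, had a mean of 5.80 FPKM in siC (SD 1.92, n = 3) and of 5.25 FPKM after depletion (SD 0.551, n = 4), and IGF2BP3 reads that fall in the overlap were not separated here.

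The change of IGF2BP1 differed from that of either homologue. On the log2 scale the change of IGF2BP1 minus that of IGF2BP2 was -2.47, and minus that of IGF2BP3 it was -2.43. In an exact permutation test over the 7 libraries, two-sided, both differences gave p = 0.0286, the smallest value that 35 assignments allow, and 0.0286 adjusted over the 2 tests. Both tests use the values of IGF2BP1, the gene the pool was directed against. They are thus not independent and largely restate its fall. The ratio of IGF2BP1 to IGF2BP2 was 4.62 ± 0.689 (SD, n = 3) in siC and 0.822 ± 0.0465 (SD, n = 4) in siIGF2BP1. The ratio to IGF2BP3 was 4.73 ± 0.290 (SD, n = 3) and 0.872 ± 0.0417 (SD, n = 4), so in the depleted cells each homologue exceeded IGF2BP1 per length of the gene.

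Summed over the 3 IGF2BP genes, the siC libraries held 117, 118 and 118 FPKM. The depleted libraries held 52.6, 52.8, 54.5 and 52.8 FPKM, or 45.2% of siC. IGF2BP1 made up 69.9 ± 1.58% (SD, n = 3) of the sum in siC and 29.7 ± 0.654% (SD, n = 4) after depletion. IGF2BP2 made up 15.3 ± 1.84% and 36.2 ± 1.64%, and IGF2BP3 14.8 ± 0.838% and 34.1 ± 1.48%. As parts of the same sum, both shares rise when IGF2BP1 alone falls. The mean FPKM of IGF2BP2 and IGF2BP3 in siIGF2BP1 were 107% and 104% of siC. These shares and the fall of the sum depend on the gene length. The table uses the merged exons of all transcripts, which for IGF2BP3 span 8511 bases against 4274 bases in the canonical transcript. With canonical lengths the sum in the depleted libraries was 52.8% of siC. With canonical lengths the shares in siIGF2BP1 were 22.2% for IGF2BP1, 28.9% for IGF2BP2 and 49.0% for IGF2BP3, and in siC IGF2BP1 held 60.9%.

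**Figure D2:**
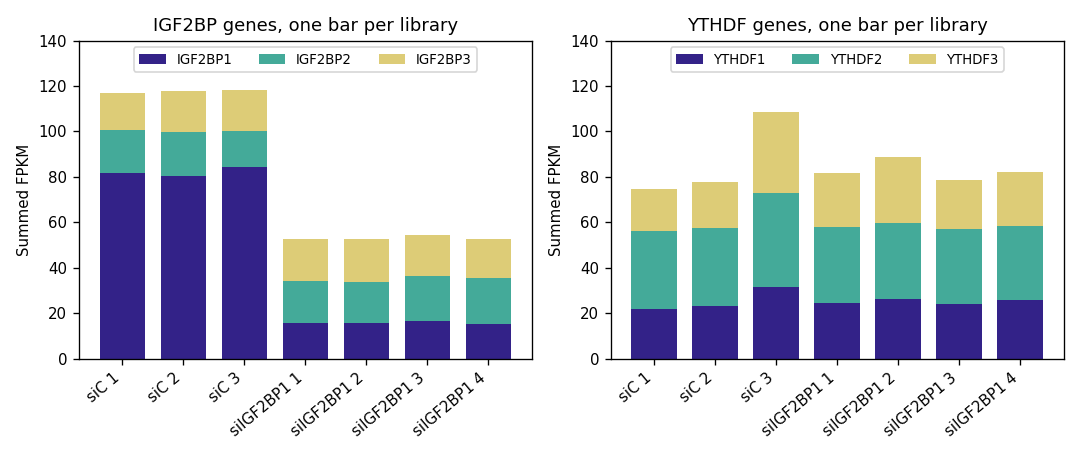
Summed FPKM (vertical axis) of the IGF2BP genes (left) and the YTHDF genes (right), with 1 stacked bar per library and 1 colour per gene. The IGF2BP sum was 117 to 118 FPKM in siC and 52.6 to 54.5 FPKM in siIGF2BP1, while the YTHDF sum ran from 74.9 to 109 FPKM in siC and from 78.6 to 88.6 FPKM in siIGF2BP1.

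The YTHDF genes encode cytoplasmic m6A readers. YTHDF2 (ENSG00000198492, chromosome 1, 28736621 to 28769775, plus strand), which recruits the CCR4-NOT deadenylase, was at 34.1, 34.2 and 41.3 FPKM in siC. In siIGF2BP1 it was at 33.3, 33.6, 33.0 and 32.6 FPKM. All 4 values lay below the siC values, but by as little as 0.481 FPKM at the nearest pair. On the log2 scale YTHDF2 differed by -0.13 (95% interval from 0.799-fold to 1.04-fold, limma adjusted p = 0.352), and by -0.043 without siC replicate 3. The current annotation places a noncoding RNA on the other strand over 920 exon bases of YTHDF2, and that identifier is not among the rows used here.

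YTHDF1 (ENSG00000149658, chromosome 20, 63195429 to 63216139, minus strand), known for promoting translation, was at 22.0, 23.1 and 31.4 FPKM in siC. It was at 24.4, 26.3, 23.9 and 25.7 FPKM in siIGF2BP1. All 4 depleted libraries lay above siC replicates 1 and 2 and below siC replicate 3. The fit of all libraries gave a log2 difference of -0.0081 (limma adjusted p = 0.981), and the fit without siC replicate 3 gave 0.15 (limma adjusted p = 0.0916).

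YTHDF3 (ENSG00000185728), which acts with the other YTHDF proteins, was the most variable member. Its values were 18.7, 20.6 and 35.9 FPKM in siC and 24.1, 28.7, 21.7 and 23.7 FPKM in siIGF2BP1. The siIGF2BP1 values again lay between siC replicates 1 and 2 on one side and siC replicate 3 on the other. Its log2 change of 0.025 had a 95% interval from 0.704-fold to 1.47-fold (limma adjusted p = 0.965). Without siC replicate 3 the log2 change was 0.31 (limma adjusted p = 0.0885), without siC replicate 1 it was -0.15, without siC replicate 2 it was -0.086, and without siIGF2BP1 replicate 2 it was -0.052.

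YTHDC1 (ENSG00000083896, chromosome 4, 68310387 to 68350090, minus strand), the nuclear reader, was at 6.36, 6.54 and 6.86 FPKM in siC. It was at 5.99, 6.48, 6.70 and 6.44 FPKM in siIGF2BP1, and the groups overlapped. Its log2 change of -0.041 had a 95% interval from 0.873-fold to 1.08-fold (limma adjusted p = 0.758), and the change was -0.011 without siC replicate 3. The interval was narrower than those of the YTHDF genes, at 0.16 on either side of the estimate against a median of 0.32 over all tested genes.

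Of METTL3, METTL14 and WTAP, WTAP showed the lowest estimate. WTAP (ENSG00000146457, chromosome 6, 159725585 to 159756319, plus strand) had siC values of 18.0, 18.5 and 22.9 FPKM. The siIGF2BP1 values were 14.7, 15.3, 14.0 and 15.0 FPKM. Every depleted library was lower than every siC library, and the group means were 19.8 ± 2.68 FPKM (SD, n = 3) and 14.7 ± 0.586 FPKM (SD, n = 4). The log2 change was -0.42 (SE 0.094), with a 95% interval from 0.643-fold to 0.874-fold. The unadjusted p was 0.0030 and the adjusted p 0.0338 (limma), so WTAP ranked 1317th of 14839 genes and did not pass 0.01. Without siC replicate 3, its highest siC value, the log2 change was -0.31 and WTAP passed (limma adjusted p = 0.00820). WTAP shares 437 exon bases with SOD2 on the other strand. In the annotation SOD2 has the identifier ENSG00000291237, which is not among the rows used here, and the table's SOD2 row has ENSG00000112096, so its values may cover other exons. In that row SOD2, a mitochondrial superoxide dismutase, differed by 0.0067 on the log2 scale, with means of 9.04 FPKM (SD 0.487, n = 3) for siC and 9.08 FPKM (SD 0.301, n = 4) for siIGF2BP1.

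METTL3 (ENSG00000165819, chromosome 14, 21498133 to 21511342, minus strand) was at 15.3, 15.3 and 12.0 FPKM in siC. It was at 12.4, 12.7, 13.2 and 13.0 FPKM in siIGF2BP1. The depleted libraries lay below siC replicates 1 and 2 and above siC replicate 3. Its change with all libraries was -0.14 on the log2 scale (limma adjusted p = 0.411). Without siC replicate 3 it was -0.26, with a 95% interval from -0.36 to -0.15, and passed (limma adjusted p = 0.00923). METTL3 shares 388 exon bases with TOX4 on the other strand, and TOX4, a chromatin-binding protein, was likewise lowest in siC replicate 3. TOX4 levels were 11.3, 11.6 and 8.41 FPKM in siC, and its log2 change was -0.099 with all libraries and -0.25 without siC replicate 3 (limma adjusted p = 0.0279). The part of the overlap in the values of METTL3 was not tested.

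METTL14 (ENSG00000145388, chromosome 4, 118685392 to 118715433, plus strand) was the lowest of the members, at 5.25, 5.75 and 6.15 FPKM in siC. It was at 5.40, 6.66, 5.19 and 5.21 FPKM in siIGF2BP1, where replicate 2 was the highest of all 7 libraries. Its log2 change of -0.029 had a 95% interval from 0.819-fold to 1.17-fold (limma adjusted p = 0.907), and the change was 0.024 without siC replicate 3. The ratio of METTL3 to METTL14 was 2.51 ± 0.499 (SD, n = 3) in siC and 2.30 ± 0.289 (SD, n = 4) in siIGF2BP1, which differed by less than the spread. Its siC values were 2.93, 2.65 and 1.96, with replicates 1 and 2 above every depleted library (2.29, 1.90, 2.54 and 2.49). The ratio of METTL3 to WTAP was 0.735 ± 0.181 (SD, n = 3) in siC and 0.870 ± 0.0522 (SD, n = 4) in siIGF2BP1, and the groups overlapped. The ratio of WTAP to METTL14, which was not planned, was 3.43, 3.22 and 3.72 in siC and 2.71, 2.30, 2.69 and 2.87 in siIGF2BP1, lower in each depleted library.

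**Figure D3:**
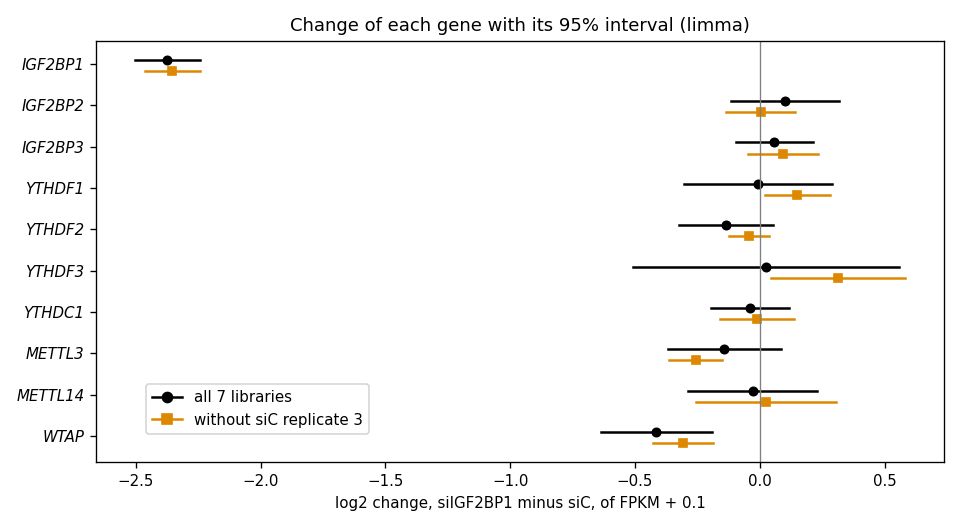
Log2 change of each gene, siIGF2BP1 minus siC, on log2(FPKM + 0.1), with its 95% interval from limma, for all 7 libraries (black circles) and without siC replicate 3 (orange squares). The interval of IGF2BP1 ran from -2.50 to -2.24, that of WTAP lay below 0 in both fits, and those of YTHDF1, YTHDF3 and METTL3 spanned 0 with all libraries and not without siC replicate 3.

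The members differed in how far siC replicate 3 lay from the other siC libraries. Its log2 difference from siC replicates 1 and 2 was 0.87 for YTHDF3 (GC content of the canonical transcript 38.4%), 0.47 for YTHDF1 (50.9%), 0.32 for WTAP (44.2%) and 0.27 for YTHDF2 (46.0%). It was -0.34 for METTL3 (49.9%) and -0.29 for IGF2BP2 (48.9%), and it was 0.057 for IGF2BP1 (49.1%). Over all tested genes the 5th and 95th percentiles of this difference were -0.92 and 0.96, and every member lay between them. In siIGF2BP1 replicate 2, YTHDF3 and METTL14 lay 0.31 and 0.33 above the mean of the other 3 libraries of the group. For 9 of 10 members the sign of the difference was the same in both libraries, as it was for 69.4% of all tested genes. What the 2 libraries share was not tested.

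By mean FPKM in siC, the order of the members was IGF2BP1, YTHDF2, YTHDF1, YTHDF3, WTAP, IGF2BP2, IGF2BP3, METTL3, YTHDC1 and METTL14. The ranges over the siC libraries overlapped for the neighbours YTHDF1 and YTHDF3, YTHDF3 and WTAP, WTAP and IGF2BP2, and IGF2BP2 and IGF2BP3, and they did not overlap for the other neighbours. The order turned on the gene length for genes with long alternative exons. The table gives METTL3 5894 bases and WTAP 5830 bases, against 1980 and 2105 bases in their canonical transcripts. Per canonical length, IGF2BP1 remained the highest at 85.1 ± 2.11 FPKM (SD, n = 3) in siC, followed by WTAP at 54.8 ± 7.42, YTHDF2 at 51.4 ± 5.81 and METTL3 at 42.3 ± 5.60, and METTL14 remained the lowest at 5.90 ± 0.468. The ratio between groups of the FPKM of a single gene does not depend on this length, but that of a sum over genes does.

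The other genes of the pathway were taken from 7 lists of 50 genes in all, of which 48 were tested. CNOT3 had a mean under 1 FPKM, and MATR3 was left out because it is split over 2 identifiers that share sequence. None of the 48 passed the threshold (limma), against 3.93% of all tested genes. With voom on the reads 0 of the 48 passed, where 489 of the 14839 tested genes passed as lower and 353 as higher. At an unadjusted p under 0.05 there were 5 lower and 3 higher genes (limma), where 25.9% of all tested genes were below that value. Their median log2 change was -0.051, against -0.017 over all tested genes. By list, the medians were -0.048 for the other writer subunits, -0.015 for the other methyltransferases, -0.098 for the erasers and -0.0060 for S-adenosylmethionine supply. They were -0.072 for the other readers, -0.036 for the partners of IGF2BP1 and -0.083 for the YTHDF effectors. These medians turned on siC replicate 3. Without it they were -0.0012, -0.061, -0.028 and 0.059 for the first 4 lists, and -0.059, -0.14 and -0.097 for the other 3, with -0.072 over the 48 genes and -0.031 over all tested genes. Without siC replicate 3, 1 of the 48 passed as lower and 1 as higher, where 10.3% of all tested genes passed, 6.67% as lower and 3.59% as higher.

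Of the other subunits of the writer complex (VIRMA, RBM15, RBM15B, ZC3H13 and CBLL1), 0 of 5 passed. RBM15B, which with RBM15 directs the complex to its RNA sites, was at 16.0, 15.3 and 24.9 FPKM in siC and at 13.5, 13.8, 12.8 and 13.0 FPKM in siIGF2BP1. The depleted libraries were all lower. The log2 difference was -0.46 with every library (limma adjusted p = 0.132) and -0.24 without siC replicate 3. CBLL1, an E3 ligase-like subunit, had a log2 change of 0.14 (limma adjusted p = 0.883) and siC values from 2.87 to 9.34 FPKM, and the change was -0.20 without siC replicate 1, -0.0060 without siC replicate 2, 0.63 without siC replicate 3 and -0.078 without siIGF2BP1 replicate 2. VIRMA, the scaffold of the complex, was at 11.3, 11.5 and 11.4 FPKM in siC and at 11.1, 11.0, 10.6 and 10.5 FPKM in siIGF2BP1, a difference of -0.075 on the log2 scale (limma adjusted p = 0.435).

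Of the other methyltransferases and their partners (METTL16, METTL5, TRMT112, ZCCHC4, PCIF1 and METTL4), 0 of 6 passed, and their log2 changes ran from -0.11 for ZCCHC4 to 0.19 for METTL5. These changes were -0.060 for ZCCHC4 and 0.0079 for METTL5 without siC replicate 3. The erasers, which remove the mark, did not pass either. FTO was low, at 1.13 to 1.45 FPKM in siC and 0.942 to 1.19 FPKM in siIGF2BP1 (log2 change -0.22, limma adjusted p = 0.517, and -0.11 without siC replicate 3). ALKBH5 was far more abundant, at 91.3 to 98.4 FPKM in siC and 89.6 to 98.4 FPKM in siIGF2BP1 (log2 change 0.023, limma adjusted p = 0.863, and 0.058 without siC replicate 3). Among 4 genes of S-adenosylmethionine supply, which feeds the methyl group, 0 passed. MAT2A, the synthetase of dividing cells, had a log2 change of -0.12 (limma adjusted p = 0.247), and the liver form MAT1A one of 0.43 (limma adjusted p = 0.180) at 1.79 to 3.72 FPKM. The change of MAT1A was 0.22 and that of MAT2A was -0.098 without siC replicate 3.

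Of 12 other proteins that read m6A or m6A-dependent structures, 0 passed. The lowest changes were those of YTHDC2, an RNA helicase with a YTH domain (log2 change -0.32, limma adjusted p = 0.109), and that of the nuclear protein HNRNPC (log2 change -0.23, limma adjusted p = 0.0709). HNRNPC was at 104, 104 and 113 FPKM in siC and at 91.4, 86.3, 91.7 and 95.4 FPKM in siIGF2BP1, without overlap. Without siC replicate 3 the log2 change was -0.22 for YTHDC2 (limma adjusted p = 0.120) and -0.19 for HNRNPC (limma adjusted p = 0.0332). Among 11 tested partners of IGF2BP1 in mRNPs, 0 passed. STAU1, which binds double-stranded RNA, came nearest. It was at 55.6, 56.6 and 54.2 FPKM in siC and at 69.3, 68.1, 69.5 and 68.8 FPKM in siIGF2BP1. The depleted libraries were all higher, with a log2 change of 0.31 (SE 0.051, limma adjusted p = 0.0106), and the change was 0.30 without siC replicate 3, where STAU1 passed (limma adjusted p = 0.00218). SYNCRIP, which acts with IGF2BP1 on the MYC coding region, was at 32.1, 33.5 and 48.9 FPKM in siC and at 25.3, 29.8, 25.7 and 25.2 FPKM in siIGF2BP1 (log2 change -0.50, limma adjusted p = 0.0872). Its log2 change was -0.31 without siC replicate 3.

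The effectors of the YTHDF proteins in decay and translation held 0 of 10 genes past the threshold. RIDA, an endoribonuclease adaptor that bridges YTHDF2 to RNase P/MRP, had a log2 change of 0.51 (limma adjusted p = 0.139), and of 0.26 without siC replicate 3. CNOT6L, a catalytic deadenylase, had a log2 change of -0.27 (limma adjusted p = 0.236), and of -0.12 without siC replicate 3. UPF1, the helicase of nonsense-mediated decay, had a log2 change of -0.14 with all libraries and -0.36 without siC replicate 3, where it was the 1 lower gene of the lists that passed (limma adjusted p = 0.00397).

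**Figure D4:**
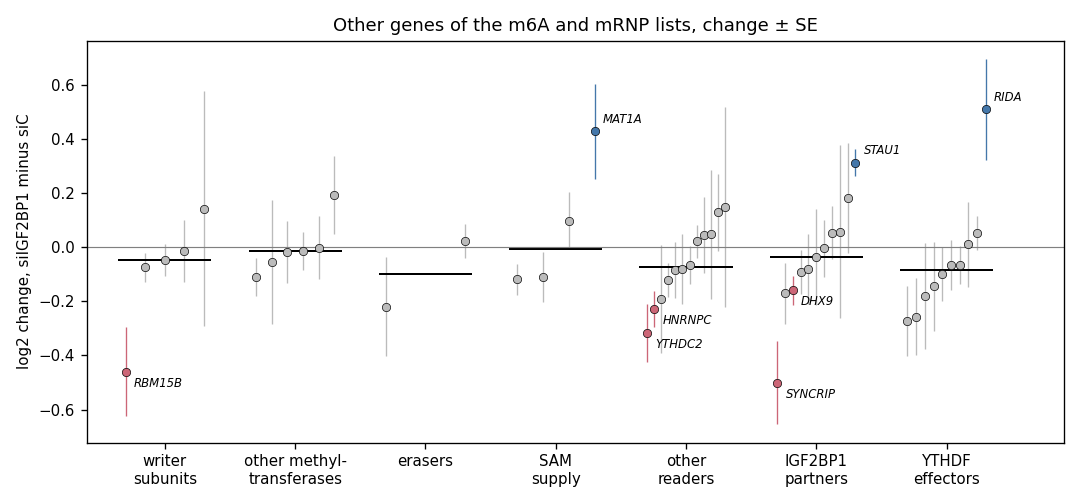
Log2 change, siIGF2BP1 minus siC, with its standard error for the 48 tested genes of the 7 lists (ELAVL1 and EIF3A stand in 2 lists each), with a black line at the list median. Coloured and named genes had an unadjusted limma p under 0.05, red for lower (RBM15B, YTHDC2, HNRNPC, SYNCRIP, DHX9) and blue for higher (MAT1A, STAU1, RIDA), and no gene shown passed the adjusted threshold.

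The pattern of IGF2BP1 over the 7 libraries was matched most closely by other transcripts that fell. The measure was the root mean square difference of log2(FPKM + 0.1), each gene centred on its siC mean, over 7 libraries. The nearest was CCDC6, a tumor suppressor known from RET fusions, at a difference of 0.16. It was at 16.1, 16.8 and 23.1 FPKM in siC and at 3.31, 3.82, 3.25 and 3.44 FPKM in siIGF2BP1, or 18.5% of siC beside 19.2% for IGF2BP1. HEPACAM2 (0.24), the actin-associated TAGLN (0.27), the SRF target ANKRD1 (0.41) and the microRNA gene MIR885 (0.44) followed. The last rested on 1 to 6 reads per library and HEPACAM2 on as few as 13, against 1806 to 23446 for IGF2BP1. The 5 genes were chosen by this likeness, so their fall is a description. HEPACAM2, TAGLN and MIR885 had siIGF2BP1 means under 1 FPKM and met the filter on low values through siC.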

How the data were processed

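Total RNA-seq of 3 siC and 4 siIGF2BP1 libraries was analysed from the table the authors deposited. Per the study's methods, the authors trimmed adapters (Cutadapt), mapped to GRCh38 (HISAT2), summarized reads per Ensembl gene (featureCounts) and normalized with edgeR (TMM). The kit marks strand, and the strand setting of the counting is not given in the sources used here. The authors deposited FPKM per library, with their own fold changes, p-values and FDR, which were not used. Every FPKM value above 0 times length was a whole multiple of 1 read (tolerance 0.05), which gave reads per gene. Reads bound the precision only as counting error.

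After a filter (mean over libraries of 1 FPKM or more), log2(FPKM + 0.1) was tested in limma 3.58.1 under R 4.3.3, trend on, two-sided, without covariates, adjusted by Benjamini-Hochberg with a threshold of 0.01. Fold changes on this scale understate those of low genes. A test of differences between homologues was an exact permutation test. The fit was tested on simulated counts with a single dispersion of 0.02. These held no library that stood apart, so the test does not cover a shift like that of siC replicate 3. The members and lists were chosen with earlier results of these data known. The genes named are the members, list genes past the threshold, the 2 largest absolute changes per list, genes that overlap a member and the 5 genes nearest to IGF2BP1 in pattern. VIRMA, DHX9 and UPF1 were named after their values were seen. Alternatives were another pseudocount, filters, scalings, voom, array weights, each library left out, a replicate block and another threshold. Annotation was GENCODE v44 on the same build (a later release than the authors'). No siRNA or protein sequence was used here.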

Additional observations from a re-analysis of the deposited data

Results flagged for a closer look

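METTL14 stood out in siIGF2BP1 replicate 2, where it reached 6.66 FPKM against 5.40, 5.19 and 5.21 FPKM in the rest of that group. The distance from replicate 2 to the nearest value was 0.855 of the whole spread. SYNCRIP reached 29.8 FPKM in the same library against 25.3, 25.7 and 25.2 FPKM, a distance of 0.888 of its spread. Both lie above the 95% critical value of Dixon's test for 4 samples. Of 29 genes examined in this way 2 exceeded it, and chance gives about 1 in 20, or 1.45. The siC group, with 3 libraries, was not examined.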

How the results depend on the processing

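IGF2BP1 (log2 change from -2.40 to -2.31 over 17 alternatives) missed the threshold in 1 of them, the fit with a replicate block (-2.36, limma adjusted p = 0.0944), where 0 genes of the table passed and 2382 had an unadjusted p under 0.05. IGF2BP2, IGF2BP3, YTHDF2 and YTHDC1 kept their direction and passed under none. WTAP kept its direction (from -0.48 to -0.31) and passed with array weights (-0.33), without siC replicate 3 (-0.31), with siC replicate 3 and siIGF2BP1 replicate 2 both left out (-0.33, an alternative chosen after seeing the data) and at a threshold of 0.05 (-0.42). METTL3 passed with array weights (-0.25) and without siC replicate 3.

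The members YTHDF1, YTHDF3 and METTL14, and CBLL1 of the other writer subunits, turned direction in some alternatives without passing. YTHDF1 was at 0.021 with median centring, 0.043 with quantile normalization, 0.12 with array weights and 0.13 without both of these libraries, and ran from -0.10 to 0.15 over the fits that each left out 1 library. YTHDF3 ran from -0.15 to 0.31, METTL14 from -0.11 to 0.024 and CBLL1 from -0.20 to 0.63 over these fits, and METTL14 was at 0.0036 with the block. METTL3 ran from -0.26 to -0.084 and WTAP from -0.48 to -0.31.

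The count of members that passed was 1, and 3 with array weights, 2 without both libraries, 2 at 0.05, 0 with the block, and from 1 to 3 with 1 library left out. The count over the lists was 0, and 1 at a mean of at least 5 FPKM, 1 with quantile normalization, 7 with array weights, 4 without both libraries, 1 at 0.05, and from 0 to 2 with 1 library left out. Over all genes, 338 lower and 245 higher became 206 and 146 without a filter, 1722 and 1022 with array weights, 1043 and 562 without both libraries, 1010 and 703 at 0.05, and 0 and 0 with the block. With 1 library left out they ran from 53 to 990 lower and from 66 to 533 higher, the highest without siC replicate 3. Each of the 7 libraries moved both counts by over 1.5 times.

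The difference between the changes of IGF2BP1 and IGF2BP2 ran from -2.55 to -2.36, and that between IGF2BP1 and IGF2BP3 from -2.46 to -2.38, with 1 library left out, where the exact permutation test cannot reach 0.05. Reads without length scaling gave IGF2BP1 76.2% of the IGF2BP sum in siC and 37.0% in siIGF2BP1, IGF2BP2 8.68% and 23.4%, and IGF2BP3 39.6% in siIGF2BP1. Canonical lengths, chosen after seeing the data, gave 60.9% and 22.2% for IGF2BP1, 28.9% in siIGF2BP1 for IGF2BP2, and 24.8% and 49.0% for IGF2BP3.

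The shared replicate numbers showed no pairing of the libraries in these values. The correlations of same-numbered deviations across genes were -0.026, -0.12 and -0.11, and the block leaves out siIGF2BP1 replicate 4. These deviations are taken from shared group means, so the correlations are not independent and cannot exclude a pairing.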
